A study of Mus musculus with 6 samples.

Results

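The genes described here encode ion channels, their auxiliary subunits and closely named relatives, taken from poly(A)+ RNA-seq of mouse 3T3 cells. Members were all protein-coding genes whose symbols begin as those of the voltage-gated calcium and sodium channels (Cacna, Cacnb, Cacng, Scn), the potassium channels (Kcn), the ionotropic glutamate receptors (Gria, Grik, Grin), the TRP channels (Trpc, Trpm, Trpv), the Piezo channels or the CLC family (Clcn). They also needed at least 60 reads summed over the 6 libraries, and 2 genes were left out by the rule. Of 182 matching genes, 49 reached this limit, and 133 did not. All 49 were among the 19452 genes tested. The 49 were placed in 13 families by their symbols. The read total over all libraries chose the members, so the presence of these RNAs is a description and not a finding. A gene at a read total this low can also reach the limit through the group in which it is higher. This holds for 4 members, which would stay under 60 reads if both groups had the count of their lower group. Scn7a had 27 reads over the SAFB KD libraries and 216 over the control libraries, and Kcnip2 had 18 reads over the SAFB KD libraries and 50 over the control libraries. Kcnj2 had 46 reads over the SAFB KD libraries and 25 over the control libraries, and Kcnj14 had 56 over the SAFB KD libraries and 23 over the control libraries.

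The SAFB KD group (3 libraries, labelled triple KD) was 3T3 cells depleted by siRNA of the Safb, Safb2 and Sltm transcripts together. These genes encode the scaffold attachment factor B (SAFB) proteins, nuclear proteins that bind RNA. The control group (3 libraries) was the same line given the control treatment. 3T3 is an established line of mouse embryonic fibroblasts, and the methods of the study describe a Flp-In derivative, so that all libraries come from 1 line. The series text calls the replicates biological, and no label ties a replicate number to a shared culture or day. The targets still had 46.6 ± 2.01 CPM of Safb, 30.01 ± 0.312 CPM of Safb2 and 61.6 ± 0.515 CPM of Sltm in SAFB KD libraries, against 93.7 ± 3.08, 46.9 ± 1.79 and 100.2 ± 4.81 CPM in control libraries (SD, n = 3 each). CPM is the read count of a gene relative to the scaled size of its library. Libraries held 33323307 to 53441129 reads in genes. On log2(CPM + 1) the first principal component (76.8% of the variance) separated the groups, and on the second (7.55%) control 3 stood apart from all other libraries.

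As background, ion channels are membrane proteins that let ions down their gradients through a gated pore. Sodium and calcium channels that open on depolarization carry inward current, potassium channels mostly carry outward current and set the resting potential, and ionotropic glutamate receptors open when glutamate binds. Fibroblasts are not excitable cells, but they are known for potassium, mechanically gated and TRP currents, through which membrane potential, cell volume and calcium entry are set. Many channels named for neurons or muscle are transcribed at low levels in fibroblast lines.

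Of the 49 channel genes, 8 were higher and 22 were lower in SAFB KD than in control libraries, and 19 did not pass the test (edgeR quasi-likelihood test, Benjamini-Hochberg adjusted p under 0.05 over all tested genes). That was 61.2% of the members, against 41.5% of all tested genes. Among protein-coding genes with at least 60 reads it was 59.1%, so the share of members called was near that of genes of similar depth. Lower calls made up 44.9% of members, against 20.1% of all tested genes and 28.4% of protein-coding genes with at least 60 reads. Higher calls made up 16.3% of members, against 21.4% and 30.7%. The median log2 fold change of the members was -0.14, with 0.01 over all tested genes. Of the 30 called members, 18 differed by under 1.5-fold, and 12 by more (8 lower and 4 higher). Called changes over 1.5-fold were thus found in 24.5% of members, against 9.97% of all tested genes (5.74% lower and 4.24% higher) and 9.86% of protein-coding genes with at least 60 reads (5.91% lower and 3.95% higher). As a share of called genes, they made up 40.0% of members, 24.1% of all tested genes and 16.7% of protein-coding genes with at least 60 reads. Beyond 2-fold (edgeR glmTreat against a log2 change of 1), 2 members were lower, Scn7a and Gria1, and 0 were higher, against 0.524% and 0.699% of all tested genes. DESeq2 and limma-voom gave the same 2 and 0. Scn7a and Kcnip2 are among the 22 lower members and the 8 lower by over 1.5-fold. Both reached the read limit through the control libraries, so their direction is partly set by that limit. Shares without them were not computed. Of the 2 members beyond 2-fold, only Gria1 did not depend on the limit in this way. The SAFB KD libraries lay wholly below the control libraries in 22 members and wholly above in 12, and the groups overlapped in 15. Groups that did not overlap were found in 49.0% of all tested genes and in 59.3% of those with at least 60 reads. In bulk RNA, fewer cells with a transcript and less of it per cell cannot be told apart.

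**Figure D1:**
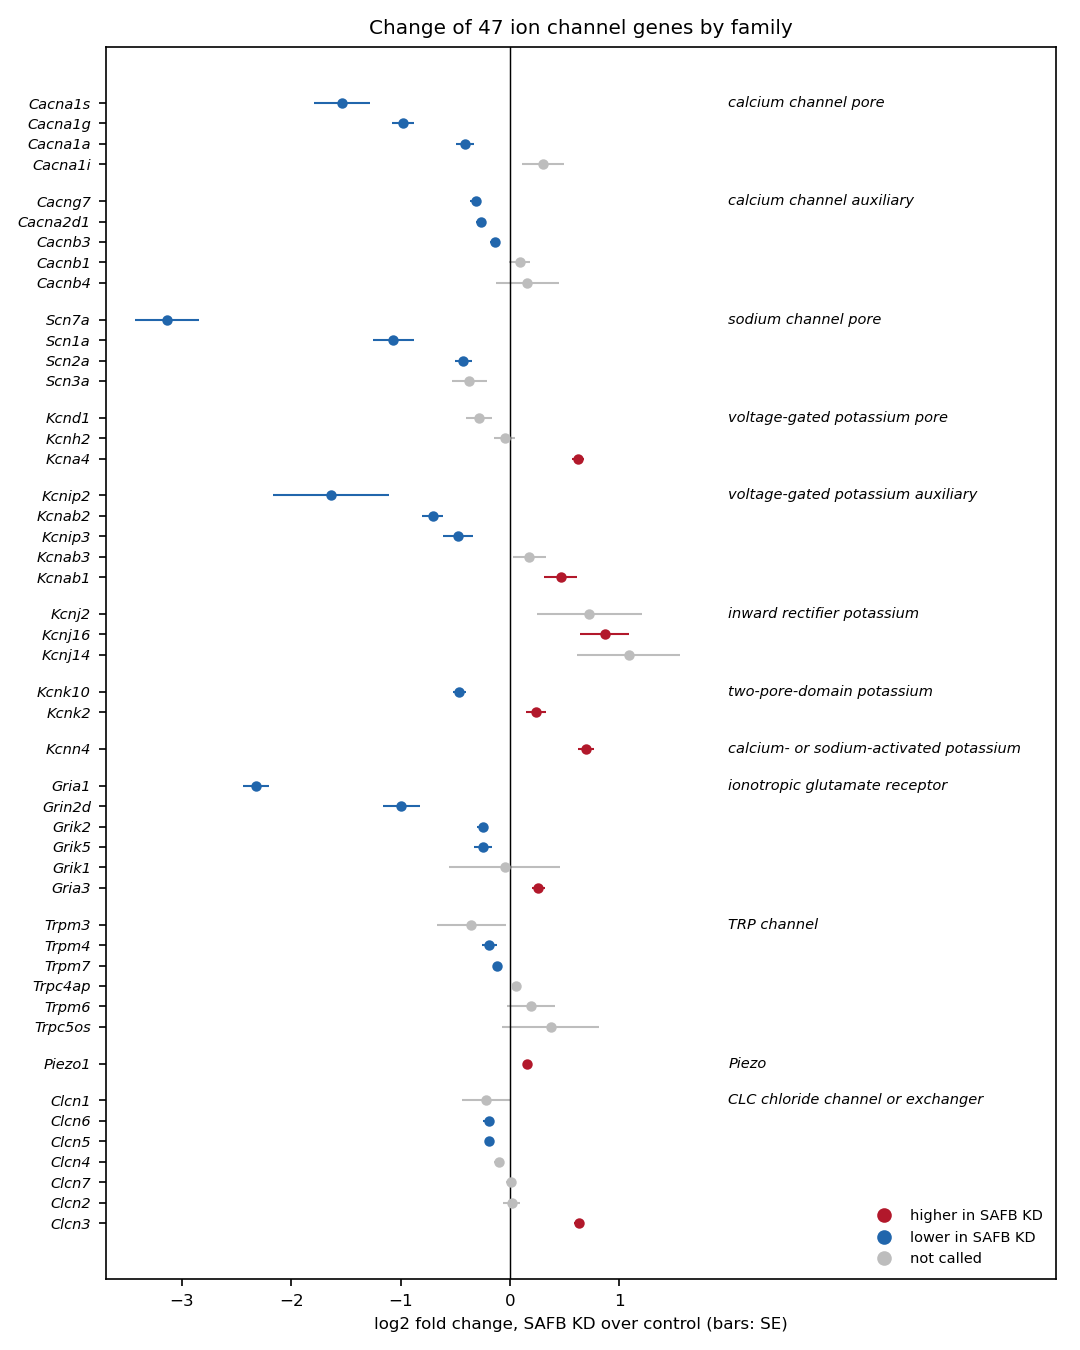
Log2 fold change of 47 of the 49 channel genes (x axis, SAFB KD over control, bars show the SE), grouped by family from calcium channel pores at the top to the CLC family at the bottom, coloured by the edgeR call. All sodium channel pore genes are left of 0, with Scn7a farthest at -3.14, and of the 3 inward rectifiers right of 0 only Kcnj16 (0.87) was called.

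Pore subunits of voltage-gated sodium channels lay below control in all members: 4 of 10 matching genes were members, 3 of them (75%) were called lower, and all 4 had SAFB KD libraries wholly below the control libraries. Family counts here and below stand beside 30.7% higher and 28.4% lower of protein-coding genes with at least 60 reads. SAFB KD libraries lay wholly below the control libraries in 23.7% of all tested genes. In genes with at least 60 reads, groups did not overlap in 59.3%, counting both directions. Scn7a (chromosome 2, 66673425 to 66784914, minus strand, GRCm38), which encodes a channel known as a sensor of extracellular sodium, fell most of all members. It had 0.142, 0.232 and 0.229 CPM in SAFB KD libraries, against 1.82, 1.95 and 1.73 CPM in control libraries. The highest SAFB KD library thus held far less than the lowest control library. The change was 8.80-fold (log2 -3.14, SE 0.293, edgeR adjusted p = 1.03e-11, and 2.95e-07 for a change beyond 2-fold). In SAFB KD libraries this rested on few reads, since Scn7a was at 5, 10 and 12 reads there, and it reached the read limit through the control libraries.

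Scn1a (chromosome 2, 66270778 to 66440840, minus strand), a sodium channel best known from inhibitory neurons and Dravet syndrome, had 1.05, 1.09 and 1.14 CPM in SAFB KD libraries and 2.14, 2.41 and 2.38 CPM in control libraries. It was 2.10-fold lower (log2 -1.07, SE 0.189, edgeR adjusted p = 9.33e-06). Scn2a (chromosome 2, 65620771 to 65767447, plus strand), a channel of excitatory neurons, had the highest level per length of the 4 (0.776 RPKM in SAFB KD and 1.04 RPKM in control libraries; RPKM is CPM per kilobase of merged exons). In CPM it had 9.86, 10.2 and 9.51 CPM in SAFB KD libraries and 12.3, 13.5 and 14.1 CPM in control libraries. It was 1.34-fold lower (log2 -0.43, SE 0.0763, edgeR adjusted p = 1.16e-05), and the groups did not overlap. Scn3a, the neighbour of Scn2a, had 2.19 ± 0.489 CPM in SAFB KD and 2.81 ± 0.215 CPM in control libraries and just missed the threshold (log2 -0.37, SE 0.161, edgeR adjusted p = 0.061). It passed without control 3 (0.0464) or without SAFB KD 1 (0.0188), but was at 0.193 without control 2 and at 0.349 without SAFB KD 2.

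The 4 pore genes lie in 1 cluster on chromosome 2, in the order Scn3a, Scn2a, Scn1a and Scn7a, with gaps of 53.1, 503.3 and 232.6 kb between them. Log2 fold changes along it were -0.37, -0.43, -1.07 and -3.14. Neighbouring genes are not independent observations. The purine hexamer GAAGAA, of a kind known as exonic splicing enhancers, was counted on the sense strand of the longest coding transcript, with overlapping matches counted apart. There were 2.18 per kb in Scn7a, 1.55 in Scn1a, 2.13 in Scn2a and 1.57 in Scn3a, which was not called. The median over protein-coding genes tested was 0.724. Scn1a, with the lowest of the 4 densities, fell more than Scn2a and Scn3a. The following 30-base coding stretch (sense strand, GENCODE M21 transcript on GRCm38, GAAGAA in capitals) is the densest of the member that fell most.
Scn7a, exon 2 of 25, chr2:66757238-66757267, minus strand: gaagaccccGAAGAAGAAGAAggtttaaaa

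Voltage-gated calcium channels showed the same direction in most genes. Of 4 pore subunits, 3 (75%) were called lower and 0 higher, against 28.4% lower and 30.7% higher of protein-coding genes with at least 60 reads. Cacna1s (chromosome 1, 136052750 to 136119822, plus strand), the voltage sensor of skeletal muscle, had 0.369, 0.673 and 0.553 CPM in SAFB KD libraries, against 1.36, 1.77 and 1.58 CPM in control libraries. It was 2.89-fold lower (log2 -1.53, SE 0.257, edgeR adjusted p = 3.92e-06), and the change was not called beyond 2-fold (0.309). Cacna1g (chromosome 11, 94408391 to 94474198, minus strand), a T-type channel that opens at low voltage, had 3.78, 4.20 and 3.93 CPM in SAFB KD libraries and 8.13, 7.51 and 7.83 CPM in control libraries. The replicates of each group were close together, and the change was 1.97-fold (log2 -0.98, SE 0.102, edgeR adjusted p = 1.54e-10). Cacna1a (chromosome 8, 84388440 to 84640246, plus strand), the P/Q-type channel of presynaptic terminals, had 7.83 ± 0.386 CPM in SAFB KD and 10.4 ± 0.365 CPM in control libraries (log2 -0.41, SE 0.0828, edgeR adjusted p = 7.69e-05). Cacna1i, another T-type gene, went the other way in all libraries but was not called (1.85 ± 0.333 CPM in SAFB KD and 1.52 ± 0.0375 CPM in control libraries, edgeR adjusted p = 0.221).

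The auxiliary subunits, which bring calcium channels to the membrane and shape their gating, were 5 members, of which 3 (60%) were lower and 0 higher. Of protein-coding genes with at least 60 reads, 28.4% were lower. All but Cacnb4 had a higher level per length than Cacna1a, the highest calcium pore (0.686 RPKM in SAFB KD and 0.913 RPKM in control libraries). Cacna2d1, the gabapentin-binding subunit, had 48.7, 47.5 and 49.4 CPM in SAFB KD libraries and 60.6, 57.6 and 56.7 CPM in control libraries (log2 -0.27, SE 0.0416, edgeR adjusted p = 1.19e-06). Cacng7, a gamma subunit that also belongs to the regulators of AMPA receptors, had 26.2, 28.3 and 28.3 CPM in SAFB KD libraries and 35.0, 34.2 and 33.7 CPM in control libraries (log2 -0.31, SE 0.0511, edgeR adjusted p = 2.65e-06). Both were lower in every SAFB KD library. Cacnb3, a beta subunit, was lower by a small step (46.2 ± 1.22 CPM in SAFB KD and 50.8 ± 2.93 CPM in control libraries, log2 -0.14, edgeR adjusted p = 0.0109), and its call was lost without control 1 (0.0949) or SAFB KD 2 (0.0514). The other beta subunit genes, Cacnb1 and Cacnb4, had overlapping groups and log2 values of 0.09 and 0.16 that did not pass the test.

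**Figure D2:**
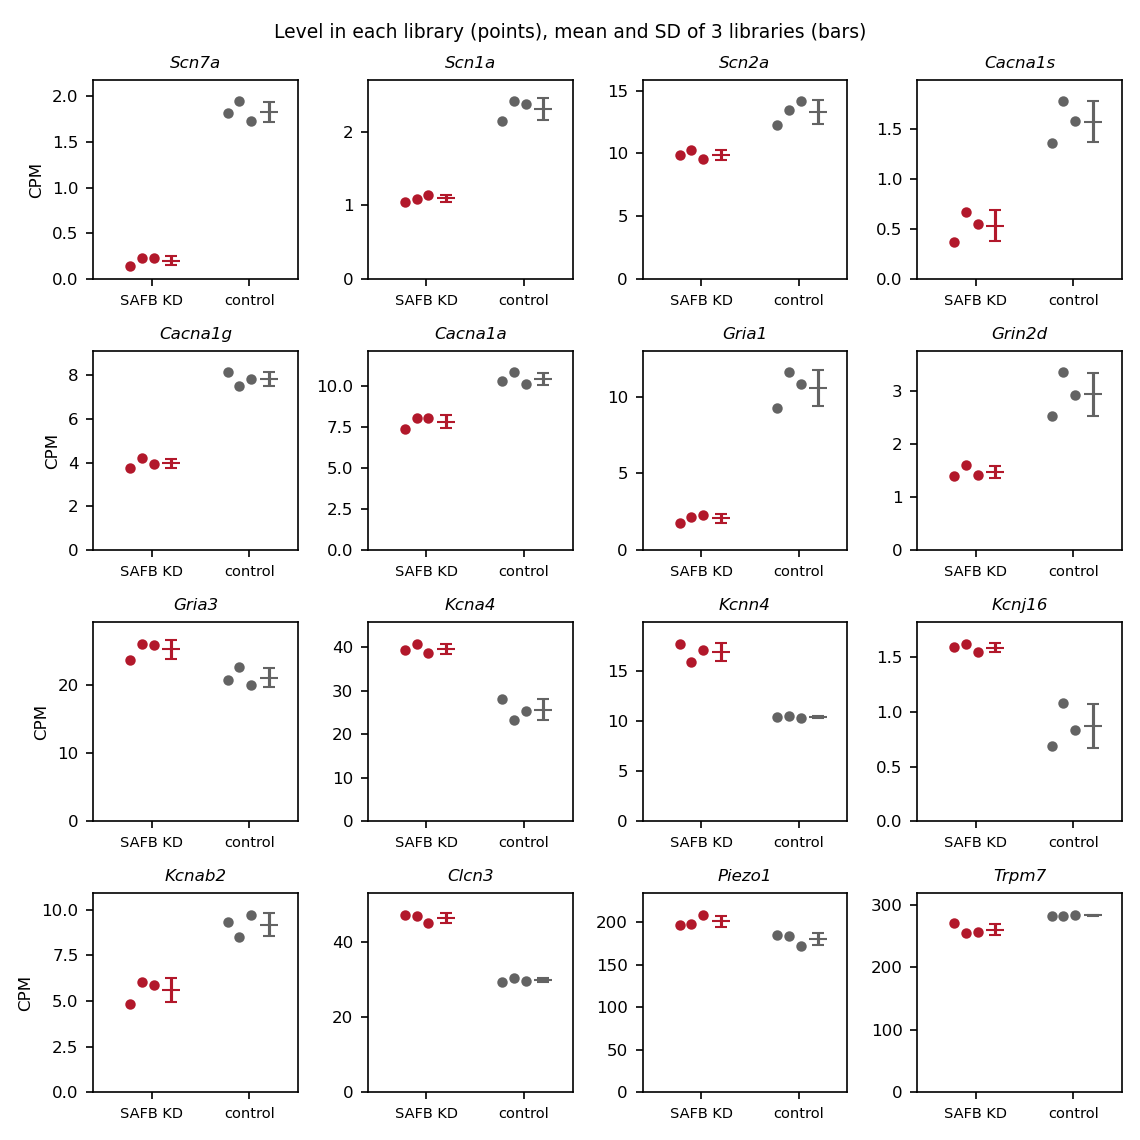
CPM of 16 channel genes, 1 point per library and beside them a bar for the mean and SD (n = 3), SAFB KD on the left and control on the right of each panel, and the y axis starting at 0. In all 16 panels the groups do not overlap; Scn7a shows the widest gap (0.201 ± 0.051 CPM against 1.83 ± 0.109 CPM), and Trpm7 one of the narrowest.

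Ionotropic glutamate receptors included the other strong faller. Of 6 members, 4 (66.7%) were called lower and 1 (16.7%) higher, against 28.4% and 30.7% of protein-coding genes with at least 60 reads. Gria1 (chromosome 11, 57011387 to 57330244, plus strand), an AMPA receptor subunit central to fast excitatory transmission, had 1.76, 2.16 and 2.31 CPM in SAFB KD libraries, against 9.26, 11.6 and 10.8 CPM in control libraries. The groups were far apart, and the change was 5.01-fold (log2 -2.32, SE 0.117, edgeR adjusted p = 1.4e-19, and 4.71e-12 beyond 2-fold). Gria3 (chromosome X, 41400854 to 41678601, plus strand), another AMPA subunit, moved oppositely: it had 23.6, 26.01 and 25.8 CPM in SAFB KD libraries and 20.6, 22.6 and 19.9 CPM in control libraries (log2 0.26, SE 0.0596, edgeR adjusted p = 0.000424). Each of its SAFB KD libraries was above each control library. Grin2d, an NMDA receptor subunit, had 1.39, 1.601 and 1.41 CPM in SAFB KD libraries and 2.54, 3.35 and 2.92 CPM in control libraries, 1.99-fold lower (log2 -0.99, SE 0.168, edgeR adjusted p = 4.57e-06). Among kainate receptor subunits, Grik2 had 29.1 ± 0.928 CPM in SAFB KD and 34.5 ± 1.63 CPM in control libraries (log2 -0.25, edgeR adjusted p = 0.000112). Grik5 had 8.35 ± 0.0501 CPM in SAFB KD and 9.87 ± 0.454 CPM in control libraries (log2 -0.24, edgeR adjusted p = 0.0151, and 0.0646 without control 2). Grik1 was near its detection limit (0.256 ± 0.0293 CPM in SAFB KD and 0.272 ± 0.117 CPM in control libraries) and not called. A GAAGAA stretch in the coding RNA of Gria1 is shown because Gria1 and Scn7a were the only members beyond 2-fold. It held 1 of the 8 matches in the transcript, so it is an example and not a dense site.
Gria1, exon 4 of 16, chr11:57189681-57189710, plus strand: tacagccgccgaGAAGAActggcaggtgac

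Potassium channel pore genes did not share the direction of the sodium and calcium channel pores. Of 10 potassium pores, 4 (40%) were called higher and 1 (10%) lower. Of 8 sodium and calcium pores, 0 were higher and 6 (75%) lower, among them Scn7a, which reached the read limit through the control libraries. With auxiliary subunits, 5 of 15 potassium channel genes were higher and 4 lower. Of the 14 sodium and calcium channel genes, 0 were higher and 10 lower. Among protein-coding genes with at least 60 reads, 30.7% were higher and 28.4% lower. The difference between these families was not tested, because the families were compared with results known. Kcna4 (chromosome 2, 107290639 to 107298502, plus strand), a fast-inactivating A-type channel, had 39.3, 40.9 and 38.6 CPM in SAFB KD libraries, against 28.2, 23.4 and 25.4 CPM in control libraries. All SAFB KD libraries were higher, by 1.54-fold (log2 0.62, SE 0.0552, edgeR adjusted p = 2.41e-12). Kcna4 also holds GAAGAA at 1.67 per kb, the most among the higher members, so the motif was dense in members of both directions.
Kcna4, exon 2 of 2, chr2:107295184-107295213, plus strand: cagcgaactgaGAAGAAGAAactccaccac

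Kcnn4 (chromosome 7, 24370263 to 24386690, plus strand), the calcium-activated channel of intermediate conductance known from fibroblasts and blood cells, had 17.7, 15.8 and 17.0 CPM in SAFB KD libraries and 10.4, 10.5 and 10.3 CPM in control libraries. It was 1.62-fold higher (log2 0.70, SE 0.0704, edgeR adjusted p = 7.77e-11), with tight control values. Of the inward rectifiers, which hold cells near the potassium potential, 3 were members, and only Kcnj16 passed the test. The SAFB KD libraries lay above the control libraries in all 3, but Kcnj2 and Kcnj14 reached the read limit through the SAFB KD libraries, so their direction is partly set by that limit. Kcnj16 (chromosome 11, 110968033 to 111027968, plus strand) had 1.59, 1.62 and 1.54 CPM in SAFB KD libraries and 0.691, 1.08 and 0.834 CPM in control libraries (log2 0.87, SE 0.224, edgeR adjusted p = 0.00154). Kcnj2, 38.2 kb from it on the same strand, had 0.350 ± 0.0814 CPM in SAFB KD and 0.208 ± 0.0522 CPM in control libraries (edgeR adjusted p = 0.245). Kcnj14 had 0.411 ± 0.137 CPM in SAFB KD and 0.197 ± 0.0643 CPM in control libraries (edgeR adjusted p = 0.0638), and it passed without SAFB KD 1 (0.0319), with up to 0.251 in other fits. It lies 7.1 kb from Grin2d, which was lower.

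The K2P channels, leak channels with paired pore domains, were split. Kcnk10, the TREK-2 channel, had 21.9, 21.2 and 19.3 CPM in SAFB KD libraries and 27.2, 29.2 and 29.6 CPM in control libraries (log2 -0.46, SE 0.0583, edgeR adjusted p = 1.3e-08). Its close relative Kcnk2, the stretch-sensitive TREK-1 channel, was higher, at 9.29, 8.40 and 8.45 CPM in SAFB KD libraries and 7.81, 7.33 and 6.82 CPM in control libraries (log2 0.24, SE 0.0893, edgeR adjusted p = 0.0269). The call of Kcnk2 was lost without control 2 (0.0806), control 3 (0.134) or SAFB KD 1 (0.111) and in DESeq2 (0.0829). Kcnd1, an A-type channel of the KChIP-binding group, was not called. It had 3.99 ± 0.322 CPM in SAFB KD and 4.84 ± 0.5003 CPM in control libraries (edgeR adjusted p = 0.0544, 0.0175 without control 3 and 0.236 without control 1). Kcnh2, the ERG channel of cardiac repolarization, had 7.03 ± 0.407 CPM in SAFB KD and 7.28 ± 0.623 CPM in control libraries.

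Among the 5 auxiliary subunits of voltage-gated potassium channels, 3 (60%) were lower and 1 (20%) was higher. Of protein-coding genes with at least 60 reads, 28.4% were lower and 30.7% higher. Kcnab2, a cytoplasmic beta subunit, had 4.83, 6.03 and 5.89 CPM in SAFB KD libraries and 9.33, 8.49 and 9.73 CPM in control libraries (log2 -0.70, SE 0.0964, edgeR adjusted p = 8.28e-08). Kcnab1, its paralogue, had 2.90, 3.83 and 2.99 CPM in SAFB KD libraries and 2.65, 2.31 and 2.02 CPM in control libraries (log2 0.47, SE 0.150, edgeR adjusted p = 0.0106). The beta subunits thus differed in direction, and the call of Kcnab1 was lost without control 3 (0.06) or SAFB KD 2 (0.129). Kcnab3 was not called (2.91 ± 0.431 CPM in SAFB KD and 2.58 ± 0.368 CPM in control libraries). Kcnip2 and Kcnip3 encode calcium-binding KChIP proteins, which assemble with A-type channels. Kcnip2 had only 1, 10 and 7 reads in SAFB KD libraries and 17, 14 and 19 reads in control libraries (log2 -1.64, SE 0.534, edgeR adjusted p = 0.0116). Its call was lost without control 3 (0.0535) or SAFB KD 1 (0.0609), the library with a single read. Kcnip3 had 3.09 ± 0.121 CPM in SAFB KD and 4.24 ± 0.974 CPM in control libraries, with overlapping groups (log2 -0.47, edgeR adjusted p = 0.00538, and 0.0768 without control 1).

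The genes with the most reads changed by small steps. Trpm7, a magnesium- and zinc-permeable channel fused to a kinase, had the highest level per length of all members, at 23.0 ± 0.770 RPKM in SAFB KD and 25.01 ± 0.0991 RPKM in control libraries. In CPM it had 271, 255 and 256 in SAFB KD libraries and 283, 282 and 284 in control libraries, a small drop without overlap (log2 -0.12, SE 0.0306, edgeR adjusted p = 0.00133). Piezo1, the mechanically gated cation channel that senses membrane stretch, had 197, 198 and 209 CPM in SAFB KD libraries and 185, 184 and 173 CPM in control libraries (log2 0.16, SE 0.0328, edgeR adjusted p = 9.87e-05). It was higher in each SAFB KD library and was the only one of 2 Piezo genes above the read limit. Trpm4, a calcium-activated channel for monovalent cations, had 15.2 ± 1.59 CPM in SAFB KD and 17.4 ± 1.09 CPM in control libraries with overlap (log2 -0.19, edgeR adjusted p = 0.0292). Its call was lost without control 1 (0.0913), control 2 (0.0853) or SAFB KD 1 (0.207) and in DESeq2 (0.0598). Trpm3 and Trpm6 were under 2 CPM in every library, overlapped and were not called.

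The TRP symbols also brought in Trpc4ap, which encodes a protein that associates with a TRPC channel, and Trpc5os, a gene named for its place opposite Trpc5. Neither encodes a channel. Trpc4ap was at 169 ± 1.82 CPM in SAFB KD and 163 ± 5.07 CPM in control libraries, and neither gene was called. Without this pair, 47 members remained, with 8 higher, 22 lower and a median log2 fold change of -0.19.

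The CLC family, chloride channels of the plasma membrane and chloride-proton exchangers of endosomes and lysosomes, held 7 members, with 1 higher (14.3%) and 2 lower (28.6%). The lower share was near the 28.4% of protein-coding genes with at least 60 reads, of which 30.7% were higher. Clcn3 (chromosome 8, 60910389 to 60983300, minus strand), an exchanger of endosomes, had 47.2, 46.8 and 44.9 CPM in SAFB KD libraries, against 29.4, 30.4 and 29.6 CPM in control libraries. Replicates were close, and the 1.55-fold difference (log2 0.63, SE 0.0471) had the smallest adjusted p of the higher members (edgeR, 1.74e-14). Clcn5, an exchanger of early endosomes linked to Dent disease, had 82.9 ± 3.40 CPM in SAFB KD and 94.7 ± 2.25 CPM in control libraries (log2 -0.19, edgeR adjusted p = 2.27e-05). Clcn6, a late endosomal exchanger, had 37.6 ± 1.92 CPM in SAFB KD and 43.2 ± 1.05 CPM in control libraries (log2 -0.20, edgeR adjusted p = 0.000754). Clcn4 did not overlap between groups (42.7 ± 1.70 CPM in SAFB KD and 45.8 ± 0.875 CPM in control libraries) but was not called (edgeR adjusted p = 0.064). It was called without control 1 (0.0476) and without SAFB KD 1 (0.0341), with up to 0.263 in other fits. Clcn1, Clcn2 and Clcn7 overlapped and were not called.

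**Figure D3:**
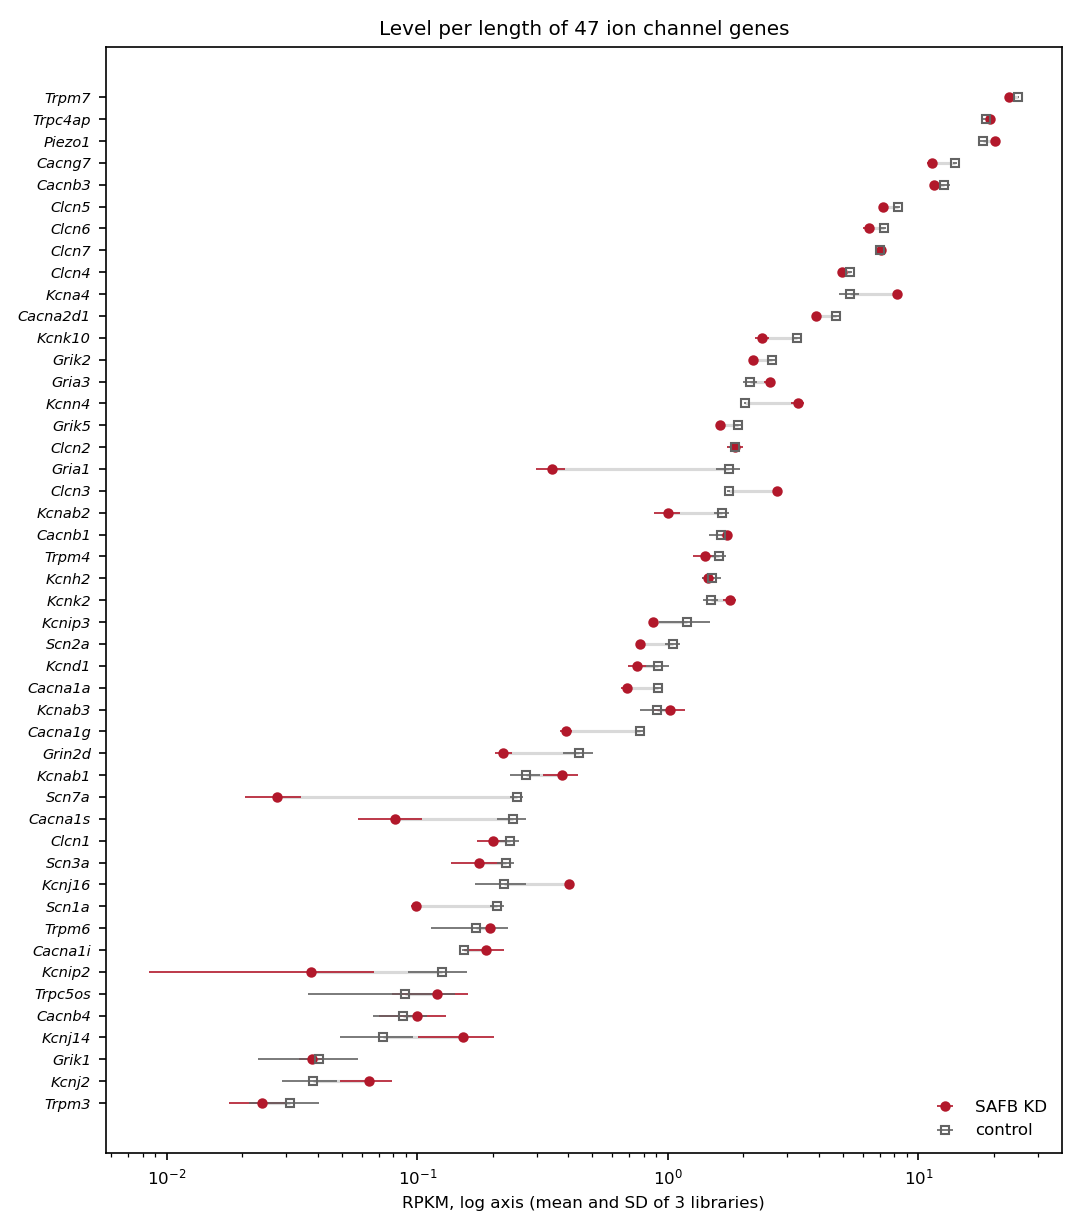
Level of 47 of the 49 members per length (x axis, RPKM on a log scale, mean and SD of 3 libraries) in SAFB KD (filled circles) and control (open squares), ordered by the control level. Most pairs lie close together; the widest gaps are those of Scn7a (0.0274 RPKM against 0.250 RPKM) and Gria1 (0.344 RPKM against 1.75 RPKM).

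Levels spanned about the same range in both groups. At least 1 RPKM was reached by 25 members in SAFB KD and by 27 in control libraries, with a median of 1 RPKM in SAFB KD and 1.48 RPKM in control libraries. Trpm7, Piezo1 and Trpc4ap held 49.6% of all member reads, and the members together made up 0.122% to 0.132% of the reads of a library. Cacng7 and Cacnb3 came next, at 11.3 and 11.5 RPKM in SAFB KD and at 14.1 and 12.7 RPKM in control libraries. By level per length, Gria1 ranked 33rd of 49 in SAFB KD and 18th in control libraries, Scn7a 48th and 34th, and Kcna4 6th and 10th.

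At the read limit, Grik1, Kcnip2 and Kcnj2 had 65, 68 and 71 reads over the 6 libraries and lay just inside. Kcnma1 and Trpv2 had 58 and 57 reads and lay just outside. Of the 133 genes under the limit, 59 had 0 reads, 55 had 1 to 9 reads and 19 had 10 to 59 reads and were tested. Of these 19, only Kcnma1 was called higher (log2 1.94, edgeR adjusted p = 0.0119), with 9, 24 and 14 reads in SAFB KD libraries and 7, 4 and 0 reads in control libraries. Only Trpv4 was called lower (log2 -2.21, edgeR adjusted p = 0.0182), with 1, 2 and 3 reads in SAFB KD libraries and 10, 8 and 8 reads in control libraries. Kcnma1 encodes the large-conductance calcium-activated potassium channel, and Trpv4 an osmotically and thermally gated cation channel; Trpv4 was singled out after its values were seen.

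Members with more exons tended to have lower log2 fold changes, but not in even steps. Across the 49 members, Spearman's rho between the number of merged exon blocks and the log2 fold change was -0.413, against -0.102 over 13506 protein-coding genes tested. It was -0.368 without the 2 members farthest from the median number of blocks and -0.404 without Scn7a and Gria1. Kcnj2 and Kcnj14, with few blocks, reached the read limit through the SAFB KD libraries, and Scn7a and Kcnip2 through the control libraries. The direction of these genes is thus partly set by that limit, and the relation without all of them was not computed. The 22 lower members had a median of 23.5 blocks, the 8 higher ones 12 and the 19 others 18. Of 13 members with 26 or more blocks, 7 were lower and 1 was higher (Piezo1), and of 7 with 1 to 5 blocks, 1 was lower and 2 were higher. Lower calls made up 50.0% of members with 6 to 15 blocks, 47.1% with 16 to 25 and 53.8% with 26 or more. Median log2 fold changes were 0.73 with 1 to 5 blocks, then -0.24, -0.14 and -0.35, so there was no steady fall from 6 blocks up. Higher calls made up 28.6% of members with 1 to 5 blocks and 29.6% of such protein-coding genes. Over protein-coding genes tested, lower calls made up 37.7% of genes with 26 or more blocks and 19.5% of those with 1 to 5, so the tendency was not particular to channels. The genomic span gave a weaker relation (rho -0.256 in members and -0.143 over protein-coding genes). These values describe genes that share libraries and paralogy, not independent replicates.

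GAAGAA was present in the longest coding transcript of 41 of the 49 members (83.7%), against 83.2% of 13492 protein-coding genes, and its median density was 0.628 per kb in members and 0.724 per kb over those genes. Across members the density had a rho of -0.147 with the log2 fold change, which was -0.044 without Scn7a and Gria1, and it was 0.037 over protein-coding genes. A further gene with at least 10 reads over the 6 libraries lay within an intron on the same strand in 5 members (Kcnk10, Cacng7, Cacna2d1, Grik2 and Kcnk2). Introns here are gaps between merged exons, and nested genes with fewer reads were not counted. Kcnab2 and Gria3 share 125 and 85 exonic bases with another gene on the same strand, where reads are not assigned to either. Introns were not analysed here.

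Genes that work with the channels were mixed in direction, and their counts stand beside 21.4% higher and 20.1% lower of all tested genes. Among protein-coding genes with at least 60 reads, the shares were 30.7% higher and 28.4% lower, and several list shares below are near these. Of 21 pumps and exchangers, 18 were tested, with 5 higher (27.8%) and 4 lower (22.2%). Slc12a2, a sodium-potassium-chloride cotransporter, had 158 ± 6.60 CPM in SAFB KD and 194 ± 3.80 CPM in control libraries (log2 -0.29, edgeR adjusted p = 7.38e-10). Atp1b3, a beta subunit of the sodium pump, had 148 ± 1.86 CPM in SAFB KD and 121 ± 2.38 CPM in control libraries (log2 0.28, edgeR adjusted p = 1.27e-09), and Atp1b1, another beta subunit, was lower (log2 -0.41, edgeR adjusted p = 3.56e-07). Of 54 other ion channel genes outside the symbols of the rule, 41 were tested, with 9 higher (22.0%) and 12 lower (29.3%). Ano6, a calcium-activated channel and lipid scramblase, had 98.9 ± 4.67 CPM in SAFB KD and 145 ± 1.88 CPM in control libraries (log2 -0.55, edgeR adjusted p = 1.36e-16). Pkd2, a cation channel of cilia, and its partner Pkd1 were lower too (log2 -0.42 and -0.40), whereas Clic4 was higher (log2 0.29). Of 33 channel partners, 18 were tested, with 7 higher (38.9%) and 6 lower (33.3%). Nedd4, a ubiquitin ligase that removes channels from the membrane, was lower (log2 -0.55, edgeR adjusted p = 1.19e-19), as were the spectrin Sptbn1 (log2 -0.52, edgeR adjusted p = 1.54e-18) and the scaffold Akap9 (log2 -0.31, edgeR adjusted p = 2.08e-09). Of the ankyrins, membrane anchors for channels, Ank2 was higher (log2 0.37, edgeR adjusted p = 9.75e-09) and Ank3, named after its values were seen, was lower (log2 -0.37, edgeR adjusted p = 3.72e-08). All 10 genes of the REST complex, which represses neuronal genes in other tissues, were tested, with 3 higher (30%) and 4 lower (40%), Rest itself at 87.7 ± 4.06 CPM in SAFB KD and 111 ± 3.12 CPM in control libraries (log2 -0.34, edgeR adjusted p = 2.5e-10).

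Since many members are named for neurons or muscle, marker genes of other cells were measured in the same libraries. Calls in these lists stand beside 21.4% higher and 20.1% lower of all tested genes. For protein-coding genes with at least 60 reads the shares were 30.7% and 28.4%. All 13 fibroblast markers were present, with a summed 19360 to 19890 CPM in SAFB KD and 20180 to 22010 CPM in control libraries, 3 higher (23.1%) and 8 lower (61.5%). The other lists held few tested genes. Fn1, which was not called, made up much of this sum (9698 ± 174.7 CPM in SAFB KD and 9469 ± 479.1 CPM in control libraries). Of the 8 lower markers, 3 were lower beyond 2-fold by glmTreat, among them Pdgfra (142 ± 1.87 CPM in SAFB KD and 366 ± 2.55 CPM in control libraries, 2.57-fold) and Postn (3.68 ± 0.256 CPM in SAFB KD and 9.99 ± 0.943 CPM in control libraries, 2.703-fold). Of 10 neuron markers, 6 were tested and 1 (16.7%) was lower (Snap25, 8.71 ± 0.196 CPM in SAFB KD and 14.7 ± 0.963 CPM in control libraries). The sum of the neuron markers, mostly Snap25, was 13.3 to 14.9 CPM in SAFB KD and 20.9 to 22.7 CPM in control libraries. The 5 other tested neuron markers were not called, Elavl4 among them went the other way (log2 0.35), and Rbfox3 had 0 reads in all libraries. Of 11 striated muscle markers, 6 were tested, with 2 higher (33.3%) and 1 lower (16.7%), a sum of 4.84 to 5.31 CPM in SAFB KD and 4.29 to 4.60 CPM in control libraries, and 0 reads of Myog. Of 7 glia markers, 4 were tested, with 1 higher (25%) and 2 lower (50%), a sum of 4.995 to 5.49 CPM in SAFB KD and 4.93 to 6.4 CPM in control libraries, and 0 reads of Aqp4 and Sox10. Of 7 leukocyte markers, 5 were tested, with 2 (40%) higher (Cd14 and Cd68) and 1 (20%) lower. The sum of the leukocyte markers, mostly Cd14, was 39.9 to 41.0 CPM in SAFB KD and 24.1 to 24.7 CPM in control libraries. Endothelial markers summed to 9.38 to 10.4 CPM in SAFB KD and 7.89 to 8.39 CPM in control libraries, with 3 of 4 tested, 1 higher (33.3%) and 0 reads of Kdr. Epithelial markers stayed under 1 CPM in sum in every library, and Epcam, Krt18 and Krt5 had 0 reads. The part of these markers in the changes of the channel genes was not tested.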

How the data were processed

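Bead-purified poly(A)+ RNA was made into strand-specific libraries (6 libraries, 3 per group, grouped by their titles). The deposited values were counts, whole numbers of reads per gene in each library, which the authors obtained with STAR 2.7.9a on GRCm38; that they are its reverse-stranded gene counts is inferred from the study's methods. The submitters' processing notes also name mm10 and deepTools 3.5.1. Such counting keeps unique reads in the exons of 1 gene.

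The 54532 genes were matched to GENCODE M21 of GRCm38 (37 did not match), and 19452 with at least 10 reads over 6 libraries were tested. The groups were compared by edgeR 4.0.16 (R 4.3.3; TMM scaling, quasi-likelihood test, 2-sided, no covariates), and p values were adjusted by Benjamini-Hochberg over all tested genes (threshold 0.05); glmTreat tested for changes beyond a log2 threshold of 1, the threshold of the study. The SE is the log2 fold change divided by the root of the F statistic. Errors on CPM and RPKM are SDs of 3 libraries. The biological coefficient of variation was 3.49%, and no 2 replicates agreed within sampling noise (their chi-square over degrees of freedom was 3.92 to 19.6). The test set the difference between groups against the spread between these replicates, with dispersion estimated across genes. All replicates came from 1 line, so the p values do not cover variation between lines.

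The members and the 12 gene lists were chosen with earlier results of these data known. Genes named with values were members beyond 2-fold, up to 14 largest called changes each way, the 8 most abundant, the most abundant per family, those around the read limit, the targets and up to 4 genes with the smallest adjusted p of the lists of other channels, pumps and partners; most remaining members are given too, and genes of the REST and marker lists are named as examples. Alternatives were RLE and upper quartile scaling, DESeq2 1.42.0, limma-voom (limma 3.58.1), no filter, filterByExpr, a replicate block, each library left out, and member limits of 30 and 120 reads. Some genes and sequences are counted but not reported here.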

Additional observations from a re-analysis of the deposited data

How the results depend on the processing

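In 13 alternative fits, the members called higher numbered 6 to 9 and those called lower 19 to 24, with 2 lower and 0 higher beyond 2-fold in each. Of the 30 called members, 22 were called the same way in every fit that tested them. The 8 others lost the call in at least 1 fit, among them Cacnb3, Grik5, Kcnab1, Kcnip2, Kcnip3, Kcnk2 and Trpm4. Over all tested genes, calls beyond 2-fold numbered 136 higher and 102 lower by edgeR, 76 higher and 55 lower by DESeq2, and 79 higher and 58 lower by limma-voom. The median log2 fold change of the members was -0.14; it ran from -0.18 to -0.13 when a library was left out. It was -0.19 with a limit of 30 reads (57 members), -0.19 with 120 reads (43 members) and -0.19 without Trpc4ap and Trpc5os, an alternative chosen after seeing the data. With the replicate number as a block, 8 members were higher and 23 lower, with a median of -0.14, and only Scn3a gained a call (adjusted p = 0.0449). Deviations of same-numbered libraries correlated at 0.031, 0.0028 and -0.015, so no pairing was seen. These values cover many genes with few reads, where counting noise hides a shared shift, so they cannot exclude a shared culture or day.

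Members near 0 changed sign in some fits, none with a call. Grik1 was at -0.05 with TMM and edgeR, at 0.076 with limma-voom, and from -0.389 to 0.169 with a library left out. On leaving out libraries, Kcnh2 ran from -0.127 to 0.0046 (above 0 without control 1), Clcn7 from -0.0276 to 0.0306 (below 0 without control 3 or SAFB KD 3), and Clcn2 from -0.0238 to 0.0712 (below 0 without control 1, SAFB KD 2 or SAFB KD 3). Cacnb4 ran from -0.0741 to 0.345 (below 0 without control 2 or SAFB KD 1), and Trpm6 from -0.0816 to 0.389 (below 0 without control 2). Kcnd1, Clcn4 and Kcnj14 passed with filterByExpr (adjusted p = 0.0434, 0.0315 and 0.0379), and Kcnd1 and Clcn4 also with RLE scaling (0.046 and 0.0443). In other fits their adjusted p ran up to 0.236, 0.263 and 0.251. The causes were not tested. Depth limits members with few reads, such as Scn7a and Kcnip2 in SAFB KD libraries, and the genes under the read limit.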
